A study of Mus musculus with 12 samples.

Results

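Spdef, Lhx1, Sall1, Etv1, Pparg and Esr2 encode transcription factors of somatic tissues, and they were selected on the difference of their signals between Baz1a-/- and control round spermatids on these arrays. Every probe that the array's annotation names for one of the 6 genes was taken, which gave 14 of 45281 probes, for 6 of 19057 named genes. Of these, 11 were detected on at least 1 of the 11 arrays used and entered the tests, beside 28751 probes in all. Probes of a gene are numbered from the highest mean signal down. The 3 probes left out were Etv1 probes 2 and 3 and Esr2 probe 3.

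BAZ1A (ACF1) is the large accessory subunit of the ISWI chromatin remodelers ACF and CHRAC. Round spermatids and pachytene/diplotene spermatocytes were sorted by Hoechst fluorescence from the testes of adult Baz1a-/- males (mutants) and Baz1a+/- males (controls) on a mixed C57BL/6J and FVB/NJ background, with 3 mice of each genotype, described as pairs of littermates, and 1 Illumina MouseWG-6 v2.0 array per mouse and cell type. The controls thus carried 1 deleted allele as well. Exon 6 had been deleted in the germ line with a Stra8-Cre transgene, and the floxed line came from 1 ES cell clone. Mutant spermatocyte replicate 1 is labelled as censored, for inferred admixture of spermatids, and was left out of every test. No probe carries the name Baz1a in the annotation, so the arrays give no check of the deletion. The median signal was 101.4 to 118.1 on the arrays used, and 36.2 to 41.4% of probes were detected. The mean log2 signal of 13 round spermatid markers was 11.9 to 12.3 on the spermatid arrays and 7.15 to 10.2 on the spermatocyte arrays used, whereas that of 7 spermatocyte markers was 7.62 to 8.05 and 9.05 to 9.24.

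Transcription factors of this kind bind short sequence elements through a conserved domain and switch on the genes of a lineage. Spdef and Etv1 belong to the ETS family, Lhx1 is a LIM-homeodomain factor, Sall1 is a zinc-finger repressor that recruits the NuRD deacetylase complex, and Pparg and Esr2 are nuclear receptors that bind lipid ligands and estrogens. In germ cells, the chromatin of such lineage genes is generally kept in a repressed but reversible state. In spermatids a large share of transcription depends instead on testis factors such as CREM.

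The promoters of 4 of the 6 genes are shown, those of the gene with the largest difference in spermatids (Spdef) and of the genes that passed the test in spermatocytes (Lhx1, Etv1 and Esr2). Each line holds the 250 bases before a start listed by RefSeq (GRCm38.p6), written 5′ to 3′ in the direction of the gene, with every CG dinucleotide (CpG) in capitals. The windows are chr17:27728952-27729201 on the minus strand for Spdef, chr11:84525535-84525784 on the minus strand for Lhx1, chr12:38779832-38780081 on the plus strand for Etv1 and chr12:76177260-76177509 on the minus strand for Esr2.
Spdef: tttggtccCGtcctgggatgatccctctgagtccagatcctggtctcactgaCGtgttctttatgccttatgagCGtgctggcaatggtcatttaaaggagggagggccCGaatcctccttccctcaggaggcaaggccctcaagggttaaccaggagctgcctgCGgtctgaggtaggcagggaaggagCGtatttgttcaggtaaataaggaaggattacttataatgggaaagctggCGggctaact
Lhx1: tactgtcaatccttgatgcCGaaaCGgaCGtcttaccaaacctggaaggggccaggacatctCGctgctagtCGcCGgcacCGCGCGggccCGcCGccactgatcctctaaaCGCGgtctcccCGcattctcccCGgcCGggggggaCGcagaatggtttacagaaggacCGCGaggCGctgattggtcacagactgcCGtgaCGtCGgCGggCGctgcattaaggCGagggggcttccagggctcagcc
Etv1: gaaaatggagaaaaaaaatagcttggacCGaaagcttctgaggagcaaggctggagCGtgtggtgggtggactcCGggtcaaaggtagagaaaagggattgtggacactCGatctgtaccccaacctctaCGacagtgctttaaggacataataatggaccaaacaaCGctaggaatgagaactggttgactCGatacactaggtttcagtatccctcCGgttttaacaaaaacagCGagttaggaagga
Esr2: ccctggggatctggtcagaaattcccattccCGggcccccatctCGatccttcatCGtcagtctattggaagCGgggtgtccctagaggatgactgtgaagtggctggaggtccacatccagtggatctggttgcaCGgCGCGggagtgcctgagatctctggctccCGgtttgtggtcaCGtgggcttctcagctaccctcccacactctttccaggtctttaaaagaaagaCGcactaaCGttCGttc
The 4 windows differ in CpG content. Lhx1 holds 26 CpGs, more than 90.4% of the 32851 mouse promoters of the same length, Esr2 holds 12, Etv1 9 and Spdef 7, and the median promoter holds 6. Etv1 has a second listed promoter, not shown, with 1 CpG. The Spdef window stands before a start inside the annotated gene, whose 5′ end is at 27731003. At least 1 CpG stands in 92.1% of all promoters. For the genes not shown, the listed promoters hold 13, 25 and 30 CpGs at Sall1 and 38, 12 and 2 at Pparg. The full cAMP response element TGACGTCA, which CREM binds, was in none of the 4 windows and is in 1.55% of promoters. Its core TGACG, read on both strands, was in those of Spdef, Lhx1 and Esr2 and is in 17.8% of promoters. Which start was used in these cells was not measured.

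Spdef drives the maturation of goblet and other secretory epithelial cells. In control spermatids its log2 signal was 5.82, 5.77 and 6.08 in replicates 1, 2 and 3, and in mutant spermatids it was 8.83, 9.51 and 9.46. All 6 arrays detected it and the genotypes stood far apart. In control spermatocytes the signal was 4.32, 4.48 and 4.37, not detected on any array, against 4.83 and 6.28 in mutant replicates 2 and 3. Only replicate 3 of the mutants detected the probe there.

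Lhx1 specifies the head organizer of the embryo, the nephric duct and classes of neurons. Its probe 1 gave 5.75, 5.66 and 5.16 in control spermatids and 7.95, 9.33 and 8.22 in mutant spermatids, and its probe 2 gave 4.42, 4.39 and 4.53, below detection, against 7.36, 6.97 and 7.34. The genotypes did not overlap on either probe, although probe 1 placed mutant replicate 2 highest and probe 2 placed it lowest. In control spermatocytes no array detected either probe, at 4.40 to 4.49 for probe 1 and 4.30 to 4.56 for probe 2. The mutant spermatocytes (replicates 2 and 3) read 4.98 and 5.65 on probe 1 and 5.58 and 6.21 on probe 2, detected on both arrays.

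Sall1 is required for the outgrowth of the ureteric bud in kidney development. Its probe 1 gave 5.89, 5.58 and 5.34 in control spermatids against 8.64, 8.27 and 7.59 in mutants. Its probe 2 gave 4.67, 4.83 and 4.57, below detection, against 7.47, 7.45 and 6.81. Mutant replicate 3 was the lowest on both probes and still well above every control. In spermatocytes, probe 1 read 5.42, 5.75 and 5.49 in controls and 6.26 and 6.27 in mutants, and probe 2 read 4.42, 4.62 and 4.91 against 4.98 and 5.64, so the groups lay close together without overlapping.

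Esr2 encodes estrogen receptor beta, and of its 3 probes only probe 1 separated the genotypes. It read 4.42, 4.80 and 4.50 in control spermatids, none detected, against 6.88, 6.54 and 6.15 in mutants. It read 4.35, 4.67 and 4.37 in control spermatocytes, again undetected, against 5.60 and 6.01 in mutants. Esr2 probe 2 stayed between 4.34 and 5.12 on the arrays used and was detected in 1 control spermatid and 1 mutant spermatocyte sample, and Esr2 probe 3 was detected on none of them.

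Etv1, an ETS factor downstream of FGF signalling, was seen by its probe 1 alone. Control spermatids read 5.44, 5.27 and 5.17 and mutant spermatids 6.45, 6.33 and 6.17. Control spermatocytes read 4.57, 5.47 and 4.54, with only replicate 2 detected, and mutant spermatocytes 6.37 and 6.50. All 5 mutant arrays thus lay between 6.17 and 6.50, whatever the cell type, above all 6 control arrays. Etv1 probes 2 and 3 were detected on none of the arrays.

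Pparg, the master regulator of adipocyte differentiation, showed the narrowest gap on its probe 1, with 5.49, 5.54 and 5.47 in control spermatids and 6.60, 6.24 and 6.86 in mutants. Its spermatocyte values were 5.25, 5.27 and 4.59 in controls and 4.48 and 5.04 in mutants, and these overlapped. Pparg probes 2 and 3 stayed between 4.22 and 5.30 on the arrays used and did not separate the genotypes.

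**Figure D1:**
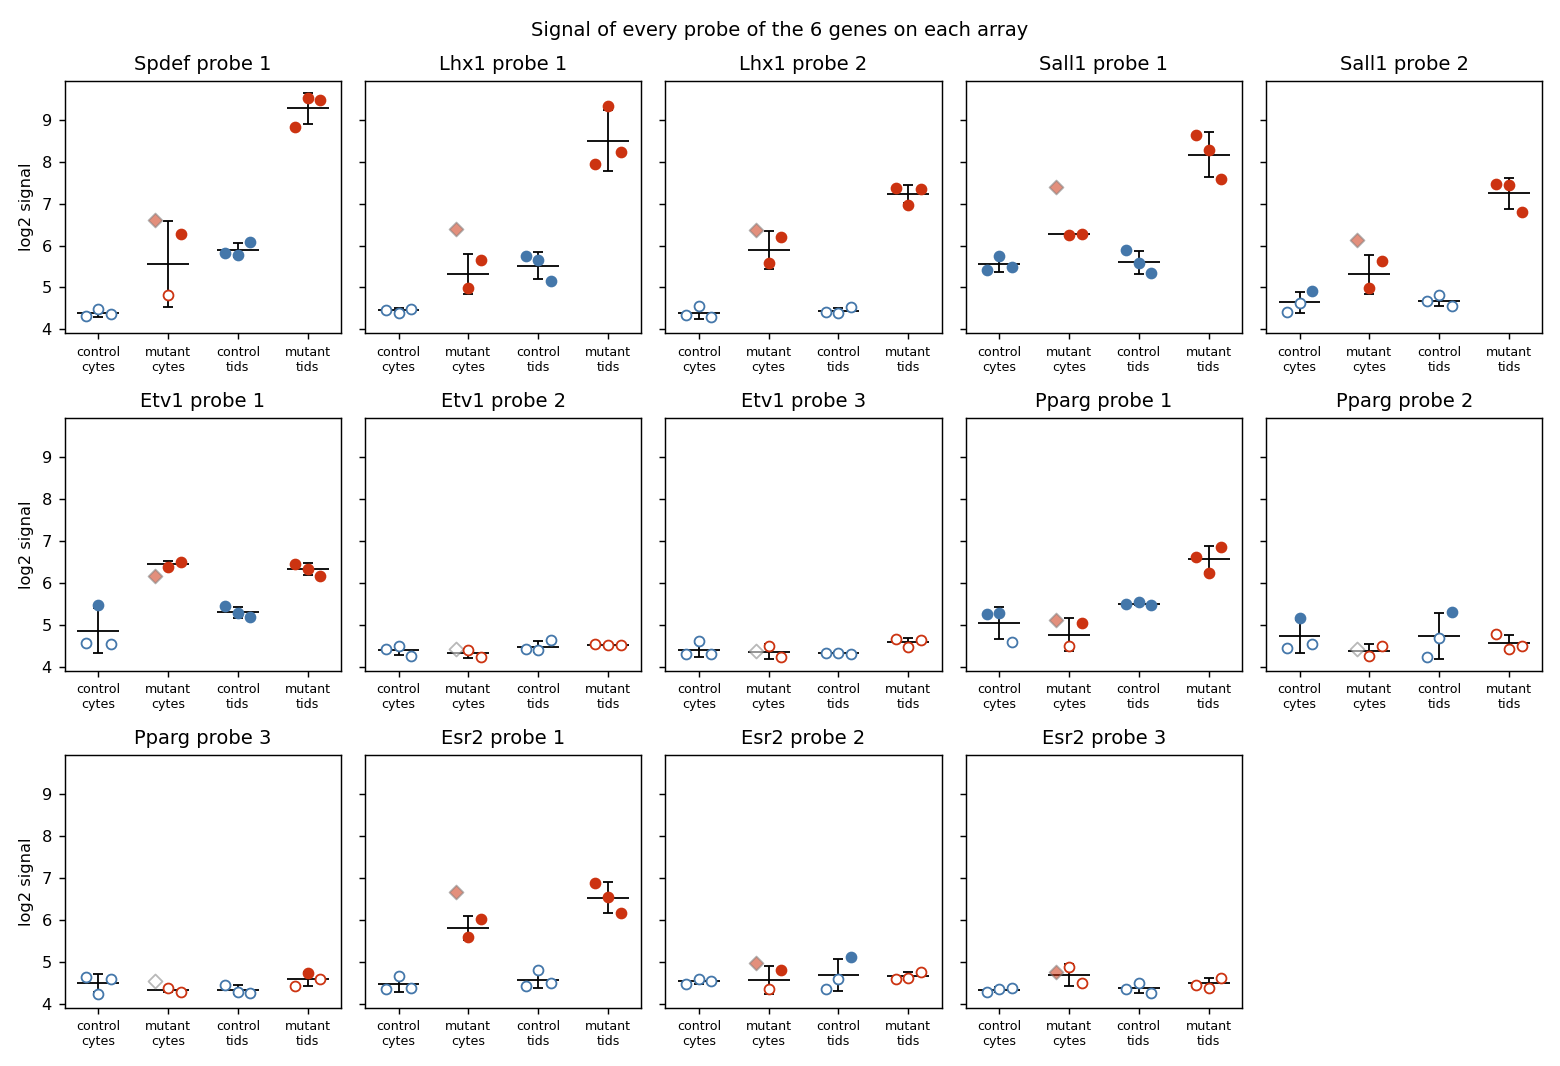
Each panel shows the log2 signal of 1 probe (vertical axis) on each array in spermatocytes (cytes) and spermatids (tids) of controls (blue) and mutants (red), filled where detected, with bars for the mean ± SD of the arrays used and a pale diamond for the censored array. Mutant spermatids stand above all control spermatids on 8 probes, and the mean of the mutant spermatocytes used lies between the spermatid groups on Lhx1 probe 2, Sall1 probes 1 and 2 and Esr2 probe 1, below both on Spdef, Lhx1 probe 1 and Pparg probe 1, and above both on Etv1 probe 1.

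The fitted log2 differences between mutant and control spermatids describe the choice of the genes and carry no test. They were 3.41 ± 0.26 (SE) for Spdef, 3.06 ± 0.29 and 2.76 ± 0.18 for Lhx1 probes 1 and 2, 2.53 ± 0.24 and 2.51 ± 0.22 for Sall1 probes 1 and 2, 1.89 ± 0.20 for Esr2 probe 1, 1.08 ± 0.22 for Pparg probe 1 and 1.02 ± 0.23 for Etv1 probe 1. On the linear scale this is 10.6-fold for Spdef and 2.03-fold for Etv1. Etv1 and Pparg lie just inside the 2-fold limit, and the members next outside it were Pparg probe 3 at 0.29, Esr2 probe 2 at -0.08 and Pparg probe 2 at -0.28. The Etv1 difference was 0.98, 0.99 and 0.94 without mutant replicate 1 and control replicates 2 and 3, and that of Pparg was 0.92 without mutant replicate 3, each then below 2-fold. Etv1 also failed the limits without mutant replicate 2. In all, 8 of the 11 tested probes, at least 1 for each of the 6 genes, were past 2-fold and an adjusted p of 0.05, where 4.03% of all tested probes were called and 2.87% were called higher. On these 8 probes every mutant value lay above every control value, as on 10.6% of all tested probes. Where no control array detected a probe, the difference is a lower bound, taken against the weakest detected signal of each control array. On that basis mutant spermatids were at least 5.33-fold higher for Lhx1 probe 2, at least 5.40-fold for Sall1 probe 2 and at least 3.28-fold for Esr2 probe 1. In sorted cells, more expressing cells and more RNA per cell cannot be told apart.

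Mutant and control spermatocytes offer a test on arrays that were not used to choose the genes. Lhx1, Etv1 and Esr2 were higher in mutant spermatocytes, each called on 1 probe. Etv1 probe 1 rose by 1.62 ± 0.30 log2 units (3.07-fold, limma adjusted p = 0.0334), Lhx1 probe 2 by 1.5 ± 0.24 (at least 2.12-fold, adjusted p = 0.0128) and Esr2 probe 1 by 1.36 ± 0.26 (at least 1.99-fold, adjusted p = 0.047). Thus 3 of 11 probes were called, all higher, where 0.41% of all tested probes were called and 0.264% were called higher. Lhx1 probe 2 and Esr2 probe 1 were detected on no control array of either cell type. They entered the tests only through mutant arrays, where they read high, so these shares are no neutral baseline for them. The other differences did not pass. They were 1.18 ± 0.34 for Spdef (adjusted p = 0.294), 0.86 ± 0.38 for Lhx1 probe 1 (adjusted p = 0.870) and 0.74 ± 0.31 and 0.72 ± 0.29 for Sall1 probes 1 and 2 (adjusted p = 0.813 and 0.736). Esr2 probe 2 was at 0.05 ± 0.27, and Pparg probes 1, 2 and 3 were at -0.34 ± 0.28, -0.30 ± 0.35 and -0.18 ± 0.22. Of the 8 probes past the limits in spermatids, 7 read higher in both mutant spermatocyte samples than in every control. Of all tested probes 8.59% did so, but the 8 had been picked as higher in mutant spermatids. By its own limits, the paper found very few probes that differed between genotypes in spermatocytes. It also reports that most probes raised in mutant spermatids were raised in mutant spermatocytes too. Shares of all tested probes thus cannot show whether these genes differ from other probes called higher in spermatids. The shares among the 825 probes called higher there were not computed. Lhx1 and Sall1 were counted with probes 1 and 2 each. The genotype comparisons in spermatids and in spermatocytes rest on different arrays of the same mice.

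The 3 calls in spermatocytes were close to the threshold. Each was lost without control spermatocyte replicate 1, at adjusted p = 0.0840 for Lhx1, 0.168 for Etv1 and 0.254 for Esr2, and in a fit of the spermatocyte arrays alone, at 0.222, 0.439 and 0.231. The fit of the spermatocyte arrays alone called 4 probes in all, with 0 of the 11 among them, where the main fit called 118. Control spermatocyte replicate 1 had the largest array weight of the main fit (1.74). Its purity was the lowest that the paper lists for a sorted spermatocyte sample. Without control spermatocyte replicate 2, Esr2 was lost (adjusted p = 0.0941), and without replicate 3, Etv1 and Esr2 (0.143 and 0.151). The calls also depended on the background setting. With a background offset of 50 or without background correction, 0 of the 11 probes passed in spermatocytes. With median scaling or without the detection filter, 1 passed, Lhx1 probe 2. Without that filter, limma gave an adjusted p of 0.062 for Etv1 and 0.068 for Esr2. The round spermatid marker mean was 8.77, 7.15 and 8.85 in the control spermatocytes, 7.91 in mutant replicate 2 and 10.2 in mutant replicate 3, so 1 mutant array had a higher marker level than any control. The part of this level in the differences was not tested beyond the values that follow. Mutant replicate 2, whose marker level lay within the control range, read above all controls for Lhx1 probe 2, Etv1 and Esr2. Without replicate 3, the differences were 1.19 for Lhx1 probe 2 (adjusted p = 0.0413), 1.58 for Etv1 (adjusted p = 0.0460) and 1.16 for Esr2 (adjusted p = 0.0998). Without replicate 2, Spdef was at 1.91 (adjusted p = 0.00664). With the marker level as a covariate, an alternative added after the data were seen, the values were 1.37, 1.67 and 1.28 for Lhx1 probe 2, Etv1 and Esr2, and 0.83 for Spdef.

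Between spermatocytes and spermatids the estimates for the 6 genes took different courses. By the interaction term of the limma fit, the genotype difference changed between cell types past the limits for 0 of the 11 probes. Spdef and Lhx1 probe 1 were higher in control spermatids than in control spermatocytes, by 1.54 ± 0.24 and 1.02 ± 0.27, and far higher in mutants, by 3.76 ± 0.35 and 3.21 ± 0.39. Lhx1 probe 2 did not share the rise in controls, at 0.06 ± 0.17 there and 1.33 ± 0.24 in mutants. Sall1 hardly differed between the cell types in controls (0.03 ± 0.22 and 0.10 ± 0.21 for its probes) and was higher in mutant spermatids than in mutant spermatocytes by 1.82 ± 0.32 and 1.88 ± 0.30. Pparg probe 1 behaved alike, at 0.39 ± 0.20 in controls and 1.82 ± 0.29 in mutants. For Etv1, the values were 0.45 ± 0.21 in controls and -0.14 ± 0.30 in mutants, and for Esr2 probe 1 they were 0.13 ± 0.19 and 0.66 ± 0.27. The interaction term and the 2 comparisons of cell types share the spermatid arrays that chose the genes and are a description. In the comparisons of cell types in controls and mutants, 2 and 6 of the 11 probes passed the limits that 28.3% and 31.3% of all probes passed.

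**Figure D2:**
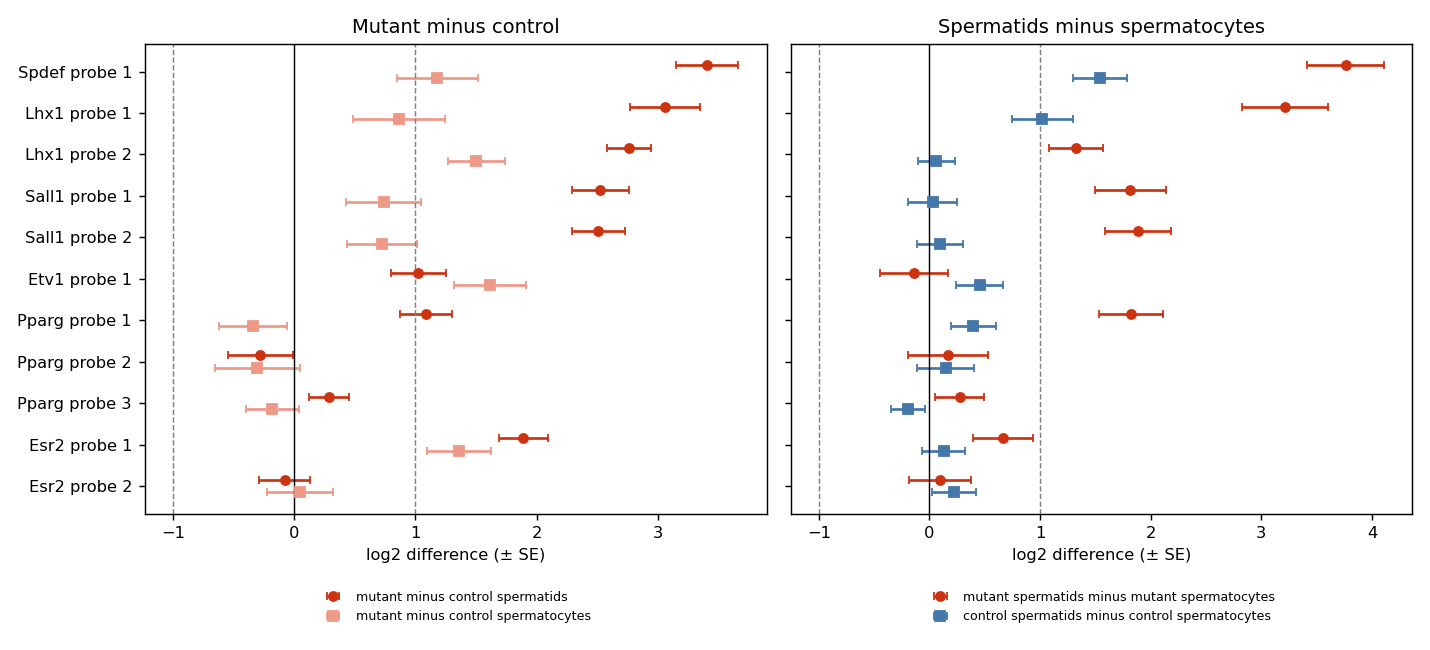
Log2 differences (horizontal axis, ± SE) of the 11 tested probes between genotypes (left, spermatids in dark red and spermatocytes in pale red) and between cell types (right, mutants in red and controls in blue), with dashed lines at 2-fold. Spdef, Lhx1 and Sall1 differ most between genotypes in spermatids, whereas the Etv1 estimate is larger in spermatocytes, which is given as a description.

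Over the 11 arrays the representative probes of Spdef and Lhx1 were the most alike pair of the 6 (Pearson r = 0.978), and Etv1 and Pparg the least (r = 0.407). The 2 probes of Sall1 correlated at 0.978 and those of Lhx1 at 0.860. Among 14625 other named genes, the pattern of Spdef was most like those of Sulf2 (r = 0.994), Lpin3 and Car4, that of Lhx1 like Tarsl2 (r = 0.988), Lum and Lpin3, and that of Sall1 like Pcdh10 (r = 0.972), Hpca and Sp5. Etv1 was most like Cnih3 (r = 0.941), Hoxa5 and Sertm1, Pparg like S100a11 (r = 0.961), Was and Gsta3, and Esr2 like Pcdh17 (r = 0.974), 2610016A17Rik and Bpifb2. All of these correlations are over the same 11 arrays and carry no test.

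The families of the 6 factors were examined next, each gene by its probe with the highest mean and without the 6 genes themselves. Over all 14626 named genes, 3.68% were called higher and 1.47% lower in mutant spermatids. Of 20 other ETS genes tested, 0 were called by limma in either direction, with differences of -0.70 to 0.35, a median of -0.07 and 5 genes at an unadjusted p under 0.05. Of 9 other LIM-homeodomain genes 0 were called (-0.27 to 0.78, 3 at an unadjusted p under 0.05), and of the other 3 Sall genes 0 (-0.97 to 0.23, 1 at an unadjusted p under 0.05). Of 30 other nuclear receptors, 2 rose. They were Rorb, an orphan receptor of retina and brain (2.24 ± 0.22, at least 3.85-fold, adjusted p = 4.26e-05) and Nr4a3, an immediate-early orphan receptor (1.44 ± 0.22, adjusted p = 0.00129). Rorb read 4.42, 4.70 and 4.59 in control spermatids, below detection, and 6.38, 6.62 and 7.27 in mutants.

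Partners of the factors gave 1 large difference. Ldb2, which bridges LIM-homeodomain factors such as Lhx1 into complexes, read 4.48, 4.27 and 4.91 in control spermatids and 7.18, 7.41 and 7.93 in mutants, a rise of 2.97 ± 0.22 (adjusted p = 4.72e-06). Its second probe rose by 2.04. In spermatocytes Ldb2 did not pass (0.22 ± 0.29), and mutant arrays did not detect it. Of the 8 LIM cofactor genes tested, 1 rose and 1 fell, the latter Ssbp3, an LDB-binding protein (-1.17 ± 0.20, adjusted p = 0.00239), whose other probes were at -0.15 and -0.04 and were not called. Without mutant spermatid replicate 3, Ssbp3 was at -0.99 and no longer called. Of 11 subunits of NuRD, the partner complex of Sall1, 0 were called by limma (-0.93 to 0.71, 2 at an unadjusted p under 0.05), and of 9 nuclear receptor coregulators 0 (-0.33 to 0.64, 1 at an unadjusted p under 0.05).

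Genes that depend on Spdef in intestinal and airway goblet cells were measured by 6 tested genes, of 11 with a probe. Of the 6, 2 rose in mutant spermatids and the same 2 in mutant spermatocytes. The others were at 0.15 (Creb3l1), 0.09 (Foxa3), -0.18 (Spink4) and -0.19 (Ern2) in spermatids and were not called. The list median was 0.12 in spermatids and -0.03 in spermatocytes, where the differences ran from -1.33 to 1.72. Muc2, the main gel-forming mucin of the intestine, read 4.37, 4.55 and 4.98 in control spermatids and 7.31, 7.97 and 7.15 in mutants, a rise of 2.78 ± 0.23 (adjusted p = 9.51e-06). In spermatocytes it read 4.65, 4.53 and 4.71, below detection, against 6.17 and 6.54 (1.72 ± 0.30, at least 2.92-fold, adjusted p = 0.0222). Clca1, a secreted protein of goblet cells, read 4.92, 4.56 and 4.56 against 6.39, 6.59 and 6.01 in spermatids (1.65 ± 0.18, adjusted p = 0.000112), and 4.59, 4.57 and 4.82 against 6.01 and 5.89 in spermatocytes (1.31 ± 0.24, at least 2.20-fold, adjusted p = 0.0334). Neither gene overlapped between genotypes in either cell type. Over all named genes 0.369% were called higher in mutant spermatocytes. A second Clca1 probe rose by 1.60 in spermatids, but a second Muc2 probe stood at -0.16, and both spermatocyte calls were lost without any 1 of the 3 control spermatocyte samples (Muc2 at adjusted p = 0.0630 to 0.126, Clca1 at 0.0700 to 0.203). Mutant spermatocyte replicate 2 read 6.17 for Muc2 and 6.01 for Clca1. Spdef read 4.83 on that array, just short of detection (detection p of 0.063 from the Illumina software), against 4.32 to 4.48 in control spermatocytes. A part of Spdef in the signals of Muc2 and Clca1 was not tested. Without replicate 3, Muc2 was at 1.53 (adjusted p = 0.0584).

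Few targets of the 2 nuclear receptors passed the limits in mutant spermatids, where 3.68% of all named genes were called higher and 1.47% lower. Of 15 PPARG target genes of adipocytes, 1 rose, Agpat2, an enzyme of triglyceride synthesis (1.51 ± 0.27, adjusted p = 0.00362), and the median was -0.02. The differences ran from -0.94 to 1.51, and 7 of the 15 had an unadjusted p under 0.05. Of 6 estrogen receptor target genes, 0 rose and 1 fell, Igfbp4, which binds insulin-like growth factors (-1.68 ± 0.24, at least 2.43-fold lower, adjusted p = 0.000832). The differences ran up to 0.67, and 3 of the 6 had an unadjusted p under 0.05. Of 10 genes of the FGF and ERK response, 0 were called by limma and 2 had an unadjusted p under 0.05. Among 10 genes that act with Lhx1 and Sall1 in kidney development, Six2 (1.62 ± 0.29, adjusted p = 0.00395) and Eya1 (1.59 ± 0.28, adjusted p = 0.00374) rose, a nephron progenitor factor and its cofactor. Of the 10, 4 had an unadjusted p under 0.05. The Eya1 call was lost without mutant spermatid replicate 2 or 3 (adjusted p = 0.0588 and 0.0505).

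Among 59 other transcription factors of somatic lineages, 4 rose and 1 fell in mutant spermatids, shares of the list to be read against 3.68% and 1.47% of all named genes. The 4 were Nkx6-1 of pancreas and spinal cord (1.66 ± 0.18, adjusted p = 9.81e-05), Six2, the neural crest factor Sox10 (1.45 ± 0.30, adjusted p = 0.010) and Sox9 (1.21 ± 0.23, adjusted p = 0.00497), a factor of cartilage and Sertoli cells. Gata6 fell by 1.55 ± 0.30 (adjusted p = 0.00633). The calls of Sox10 and Gata6 were lost without control spermatid replicate 3 (adjusted p = 0.0854 and 0.0645), that of Sox10 also without control replicate 2 (0.0516), and that of Sox9, then at 0.93, without mutant replicate 3. In spermatocytes 0 of the 59 were called by limma, and 8 had an unadjusted p under 0.05. Lhx5, the closest relative of Lhx1, was the 1 LIM-homeodomain gene called in spermatocytes, at 4.87, 5.07 and 4.73 in controls and 5.91 and 6.24 in mutants (1.18 ± 0.22, adjusted p = 0.0384), and at 0.38 ± 0.17 in spermatids it did not pass. The Lhx5 call was lost without any 1 of the spermatocyte arrays other than mutant replicate 2 (adjusted p = 0.0713 to 0.176).

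**Figure D3:**
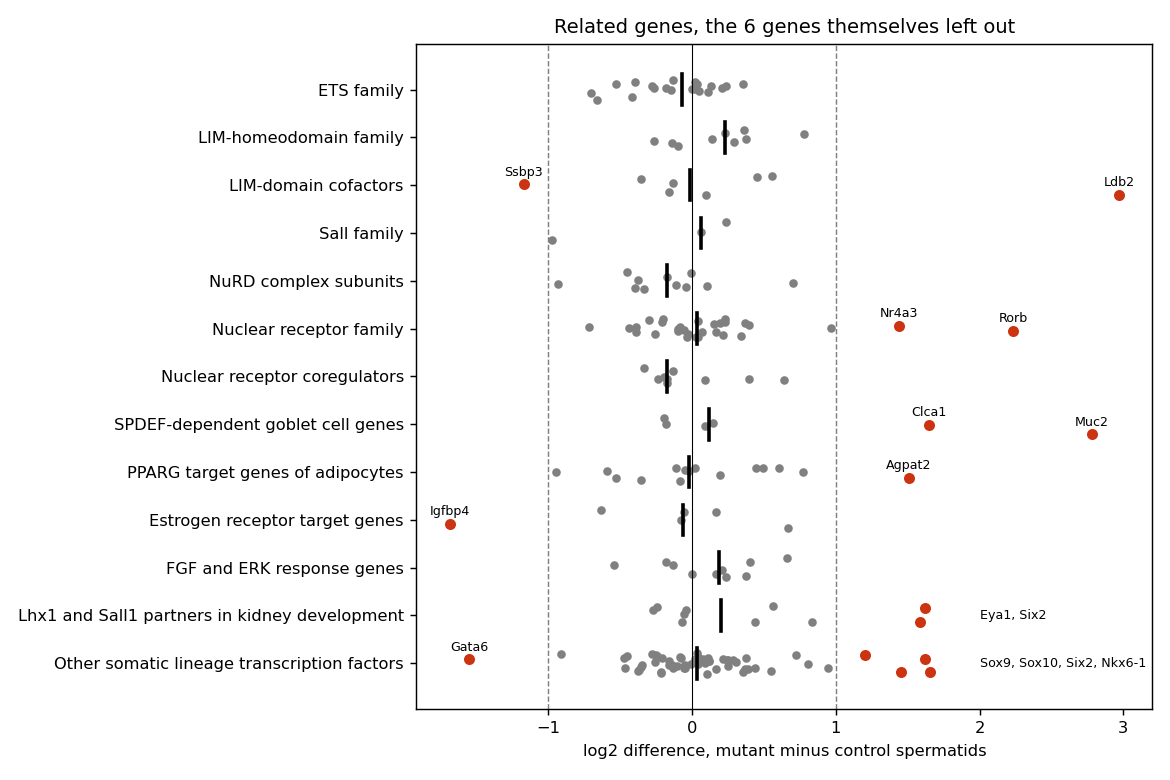
Log2 difference between mutant and control spermatids (horizontal axis) for each tested gene of each list, with called genes in red and named, the list median as a black bar and dashed lines at 2-fold. ETS, Sall and LIM-homeodomain relatives stay within 2-fold, and the called genes stand apart from the body of their lists.

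Markers of other testis cells were read on the same arrays, because the 6 genes are also active in somatic cells. Mutant spermatids had a higher mean log2 signal than control spermatids for the markers of endothelial cells (5.77 to 6.32 against 5.09 to 5.34, 2 of 8 tested genes called), of peritubular myoid cells and fibroblasts (6.04 to 6.07 against 5.19 to 5.39, 2 of 10), of macrophages (5.60 to 5.72 against 5.14 to 5.15, 1 of 8) and of Leydig cells (6.90 to 8.44 against 5.59 to 6.82, 2 of 3). The called genes, all higher, were Cldn5 (3.44) and Egfl7 (1.94), Igfbp7 (3.09) and Lum (2.97), Cd14 (2.71), and Cyp17a1 (2.14) and Cyp11a1 (1.32, at least 2.10-fold). The other probes of Egfl7 and Igfbp7 were at -0.42 to 0.18 and were not called. Of the other endothelial markers, Vwf was detected on all 6 spermatid arrays, Tek on 2 and Cdh5 on 1 of each genotype, Pecam1 and Tie1 on 2 and 1 mutant arrays and no control, and Emcn, Kdr, Plvap and Esam on none. Of the mesenchymal markers, Acta2 was detected on all 6 arrays, Col3a1 on 3 and Col1a2 on 2 mutant arrays and no control, Dcn on 3 mutant and 2 control arrays, Cnn1, Myh11 and Tagln on 1 control array each, and Col1a1, Des and Pdgfra on none. Of the macrophage markers, Adgre1 was detected on all 6 arrays, Csf1r on 3 mutant and 2 control arrays, C1qb on 2 of each genotype, Lyz2 and Mrc1 on 1 mutant and 2 control arrays, C1qa and Cx3cr1 on 1 mutant array each, and Itgam on none. Of the Leydig markers, Insl3 was detected on all 6 arrays, and Star, Hsd3b1 and Hsd3b6 on none. Some defining markers were thus seen more often in mutant spermatids, and others were absent from all spermatid arrays. The Cyp17a1 call was lost without any 1 of the spermatid arrays other than control replicate 1 (adjusted p = 0.0695 to 0.167), and the Egfl7 call without control replicate 3 (adjusted p = 0.0569). Sertoli markers were at 5.47 to 6.03 against 5.31 to 5.93, with 1 of 9 called, Sox9. Of 3 markers each of adipocytes and of kidney epithelium and 2 of epididymal epithelium, 0 were called by limma, with 1, 0 and 1 at an unadjusted p under 0.05. Cldn5 also rose in mutant spermatocytes, by 3.11 ± 0.23 (adjusted p = 7.35e-05). The endothelial marker mean, Cldn5 included, was 5.26 to 5.34 in mutant and 4.78 to 4.87 in control spermatocytes. That of myoid cells and fibroblasts was 5.19 to 5.21 against 4.86 to 4.99, and that of macrophages 4.79 to 4.98 against 4.68 to 4.76. The Leydig and Sertoli means overlapped between genotypes in spermatocytes. The part of other cell types in the signals of the 6 genes was not tested.

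The genes around the 6 loci were compared as well. Within 500 kb, 49 neighbours were tested in spermatids and 5 were called, 4 of them higher, where 3.68% of all named genes were called higher and 1.47% lower. Pacsin1, a membrane-bending protein 3.3 kb from Spdef, rose by 1.17 ± 0.27 (adjusted p = 0.0185), Def6 at 476.5 kb rose by 1.58, and Uhrf1bp1 at 125.5 kb fell by 1.08. Car4, a carbonic anhydrase 432.2 kb from Lhx1, rose by 3.45 ± 0.19 (adjusted p = 2.71e-07), and Timp4, an inhibitor of metalloproteinases 108.7 kb from Pparg, by 1.95 ± 0.30 (adjusted p = 0.00126). Around Sall1 and Esr2, 0 of 2 and 0 of 10 neighbours were called by limma (0 and 1 at an unadjusted p under 0.05), and no named gene with a probe lay within the span around Etv1. The Pacsin1 call was lost without control spermatid replicate 1 or mutant replicate 1 or 3 (adjusted p = 0.0506 to 0.0831), and Uhrf1bp1 was below 2-fold without control replicate 2 (-0.97). The median over the 49 neighbours was 0.04.

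**Figure D4:**
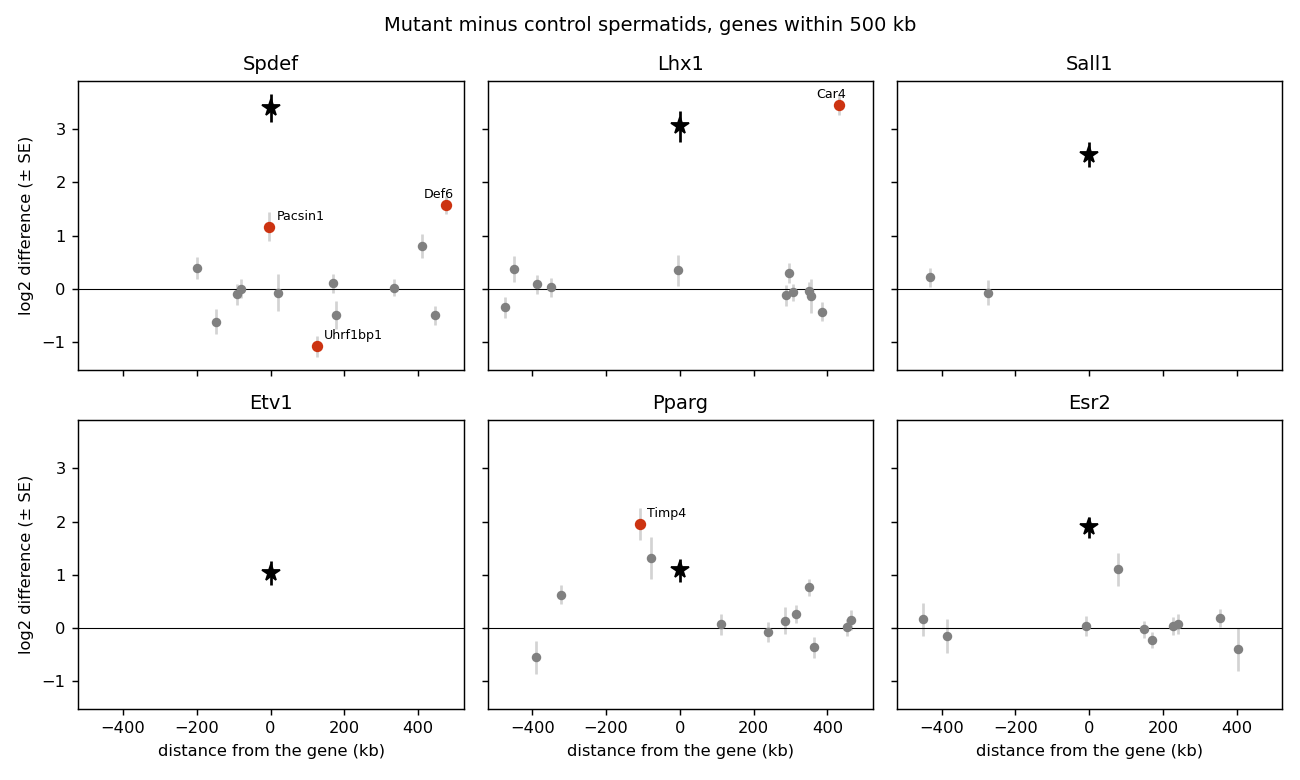
Log2 difference between mutant and control spermatids (vertical axis, ± SE) of the genes within 500 kb of each of the 6 genes (black star), by distance in kb, with called genes in red and named. Most neighbours lie near 0 beside the gene in the centre.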

How the data were processed

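The authors exported a bead signal for each probe from Illumina software (GenomeStudio 2011.1 in the submitters' processing notes), a linear intensity without background subtraction, with a detection p-value computed by that software. The authors' deposited log2 values had been corrected in limma 3.12.1 by normexp, using the array's control probes, and quantile normalized. Here the deposited intensity values of the 12 arrays were corrected by normexp (offset 16, negative controls inferred from the detection p-values) and quantile normalized in limma 3.58.1 (R 4.3.3). Values computed in this way lay within 0.0458 of the deposited log2 ones. The number of arrays per group, 2 or 3, limits the precision. The study's removal of poorly annotated probes was not used here.

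Probes with a detection p under 0.05 on at least 1 of the 11 arrays used were fitted in 1 limma model of the 4 groups with array weights. Probes at least 2-fold apart with a p under 0.05 after Benjamini-Hochberg adjustment were called, over all 28751 tested probes, of which 23458 have 1 gene name in the platform annotation, 13 several and 5280 none. The steps were tested on simulated data. Each of the 6 mice gave 1 spermatid and 1 spermatocyte sample, joined by the animal numbers of the labels, so replicates of a group are separate mice. The deviations from the group means of the 2 cell types of a mouse correlated at -0.04 to 0.23. The alternatives concerned background, scaling, filters, weights, blocks and left-out arrays.

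The 6 genes and all gene lists were chosen with earlier results of these data known. By rule, each probe of the 6 genes is described, up to 4 called genes per list and direction in either genotype comparison are named by size of the difference, and the 3 genes most like each of the 6 are named. Positions, distances and promoters come from RefSeq tables (GRCm38.p6).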

Additional observations from a re-analysis of the deposited data

Results flagged for a closer look

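On the censored array of mutant spermatocyte replicate 1, which entered no comparison, 9 probes of the 6 genes were detected and stood above all 3 control spermatocyte samples, at a log2 signal of 6.61 for Spdef, 6.40 and 6.37 for Lhx1 probes 1 and 2, 7.39 and 6.13 for Sall1 probes 1 and 2, 6.17 for Etv1 probe 1, 6.66 for Esr2 probe 1, 4.98 for Esr2 probe 2 and 4.76 for Esr2 probe 3. Pparg probe 1 was also detected there, at 5.10, within the range of the controls (4.59 to 5.27). The round spermatid marker mean of this array was 10.5, against 7.15 to 8.85 in control spermatocytes, and its part in these signals was not tested. Muc2 read 6.41 and Clca1 5.95 there.

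The difference between genotypes was larger in spermatids than in spermatocytes, by the interaction term of the limma fit, for Ldb2 by 2.75 (adjusted p = 0.0119), for Car4 by 2.73 (adjusted p = 0.00552) and for the mesenchymal marker Igfbp7 by 2.38 (adjusted p = 0.0119), and the other Igfbp7 probe did not show a difference between genotypes past the threshold in either cell type.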

How the results depend on the processing

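The main counts of called probes were 118 between genotypes in spermatocytes, 1158 between genotypes in spermatids, 8123 between cell types in controls and 9007 in mutants. With an offset of 50 the genotype counts were 59 in spermatocytes and 553 in spermatids, and without background correction the 4 counts were 35, 307, 4378 and 5004. In spermatocytes, median scaling gave 187 probes, 53 higher and 134 lower against 76 and 42, and moved the median of all probes from -0.01 to -0.16. The spermatocyte count was 4 with only the 2 groups compared in the fit, 840 with the censored array kept and 469 with the round spermatid marker level as a term of the fit, an alternative chosen once the data had been seen. A fold limit of 1.5 gave 2146 probes in spermatids, 1237 higher and 909 lower. Leaving out 1 array at a time gave 29 (without control replicate 1) to 558 (without mutant replicate 2) in spermatocytes, 807 to 1366 in spermatids, 7799 to 8439 in controls and 8181 to 10001 in mutants. With the replicate block the genotype counts were 162 and 1164. The series names littermate pairs, but no label says that the numbers mark litters. Same-numbered control and mutant arrays correlated at 0.07 to 0.31 in the 3 spermatid pairs and 0.42 to 0.54 in the 2 spermatocyte pairs, and 4 of 6 spermatid arrays correlated best with their own number. As 1 spermatid pair was below 0.1, the numbers were not used to pair the genotypes, and litters may still be shared. No called value of the 6 genes, the listed genes or the neighbours changed sign under any alternative, but values shrank with the background setting. In spermatids, 8 probes of the 6 genes passed the limits, 6 with an offset of 50 and 5 without background correction, where Lhx1 probe 2 was at 1.17, Esr2 probe 1 at 0.71, Pparg probe 1 at 0.47 and Etv1 probe 1 at 0.40, and 7 with the replicate block (Etv1 at 0.96). Of 20 alternatives in spermatids, Etv1 and Cyp17a1 passed in 13, Pacsin1 in 15, Eya1 and Ssbp3 in 16, Pparg, Sox9, Sox10 and Uhrf1bp1 in 17, and Clca1, Cyp11a1, Igfbp4, Gata6, Egfl7 and Def6 in 18. In spermatocytes the calls held in 15 of 19 alternatives for Lhx1 probe 2, 11 for Etv1 and 8 for Esr2. All were lost with an offset of 50 and without background correction. With the censored array kept, Spdef reached 1.87 in spermatocytes (adjusted p = 0.00174).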
